A study of Mus musculus with 12 samples.

Results

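Troponin subunits were represented by 8 genes (Tnnt1, Tnnt2, Tnnt3, Tnni1, Tnni2, Tnni3, Tnnc1 and Tnnc2) of 18193 genes on the array, and by 12 of its 45101 probe sets. They were chosen by gene symbol, from probe sets annotated to a single gene, and each is reported by whichever of its probe sets was brightest on average over the 12 arrays. RNA came from mouse embryonic stem cells differentiated in hanging drops to day 6 embryoid bodies, dissociated and flow-sorted on a red reporter (dsRed) specific for the second heart field and on eGFP, a green reporter driven by a cardiac-specific enhancer. Double-positive cells carried both signals, red-only cells dsRed without eGFP, green-only cells eGFP without dsRed, and double-negative cells neither, as the sample titles and reporter labels say; the sorting protocol prints the red-only signs also for the double-negative population. Each population was hybridised to 3 single-colour arrays, 1 per experiment (A, B and C). The labels give no strain, clone or enhancer name, and do not say whether the experiments were separate cultures, so p-values measure the spread between these arrays, which may be technical. All cells were sorted as groups, so fewer muscle cells in a population and less troponin RNA per cell cannot be told apart.

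Troponin is the calcium switch of striated muscle. It sits at intervals along the actin and tropomyosin of the thin filament: troponin C binds calcium, troponin I holds the filament in the inhibited state, and troponin T anchors the complex to tropomyosin. Each subunit is made from several genes. Tnnt2 and Tnni3 encode the cardiac forms of troponin T and I, and Tnnc1 encodes the troponin C shared by heart and slow skeletal fibres. Tnni1 encodes the slow skeletal troponin I, which is also the main troponin I of the embryonic heart before Tnni3 takes over. Tnnt1 is the slow skeletal troponin T gene, and Tnnt3, Tnni2 and Tnnc2 encode the fast skeletal forms.

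The genes Tnnt2, Tnni1, Tnnc1 and Tnni3, were highest in double-positive cells, followed by green-only, red-only and double-negative cells, and this order was found in each of the 3 experiments. Tnnt2 averaged 1934 ± 354 intensity units (SD, n = 3) in double-positive against 17.9 ± 2.2 in double-negative cells. Tnni1 averaged 2410 ± 211 against 60.1 ± 5.3, Tnnc1 1280 ± 375 against 30.8 ± 17.3, and Tnni3 97.7 ± 54.0 against 8.72 ± 1.66. The slow skeletal gene Tnnt1 followed another order, with green-only cells highest and red-only cells lowest in every experiment. The fast skeletal genes Tnnt3 and Tnnc2 lay under the median of the array on all 12 arrays, and Tnni2 varied little. The medians of the 12 arrays, a rough mark of unexpressed probe sets, lay between 6.29 and 6.73 units.

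**Figure D1:**
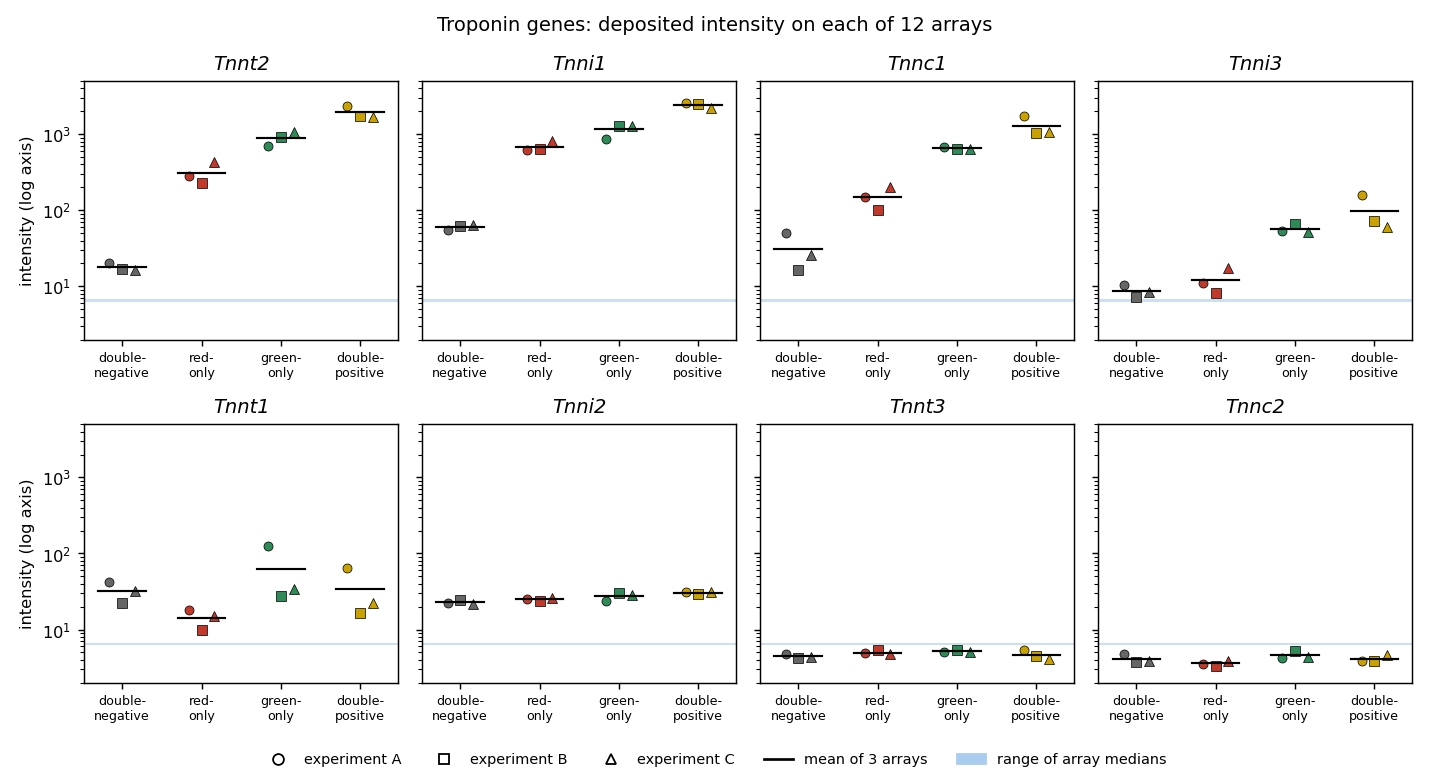
Deposited intensity (log axis) of the 8 troponin genes on each of the 12 arrays, 1 panel per gene, with bars at the mean of 3 arrays, marker shapes for the experiments and a band for the range of array medians (6.29 to 6.73). Tnnt2, Tnni1, Tnnc1 and Tnni3 climb from double-negative to double-positive cells, and Tnnt3 and Tnnc2 stay under the band; heights are not comparable between panels, since each gene has its own probes.

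The genes whose levels moved together are shown by the 250 bases before their transcription starts, so that their promoters can be set side by side. Tnnt1 is shown beside its neighbour Tnni3. The order of the populations differed between these neighbours, though both read higher in green-only than in red-only cells in every experiment. RefSeq (GRCm38.p6) windows matched 6 of the 8 members. Capitals mark matches on either strand to CATTCC (the M-CAT element bound by TEAD factors), GATAA (the core of GATA factor sites) and CTANNNNTA. The last is a loose form of the MEF2 core that allows any bases in the middle, where that core has A or T. Shown are chr1:135836084-135836333 on the plus strand (the first of 2 Tnnt2 windows), chr1:135799171-135799420 on the plus strand (the first of 2 Tnni1 windows), chr14:31208062-31208311 on the plus strand (Tnnc1), chr7:4522529-4522778 on the minus strand (Tnni3) and chr7:4515976-4516225 on the minus strand (Tnnt1).
Tnnt2: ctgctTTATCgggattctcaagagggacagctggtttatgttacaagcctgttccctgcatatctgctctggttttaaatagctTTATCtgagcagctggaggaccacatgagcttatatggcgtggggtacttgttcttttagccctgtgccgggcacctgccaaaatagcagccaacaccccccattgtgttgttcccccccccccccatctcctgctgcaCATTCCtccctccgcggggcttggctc
Tnni1: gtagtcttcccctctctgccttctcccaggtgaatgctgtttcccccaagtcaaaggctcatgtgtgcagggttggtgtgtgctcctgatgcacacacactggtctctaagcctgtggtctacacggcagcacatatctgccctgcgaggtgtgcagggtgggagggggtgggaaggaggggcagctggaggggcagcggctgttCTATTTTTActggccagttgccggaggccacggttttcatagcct
Tnnc1: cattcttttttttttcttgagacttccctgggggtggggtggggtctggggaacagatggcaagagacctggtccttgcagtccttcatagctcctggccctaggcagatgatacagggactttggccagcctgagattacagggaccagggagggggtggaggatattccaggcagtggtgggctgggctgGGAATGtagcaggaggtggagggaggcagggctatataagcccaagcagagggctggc
Tnni3: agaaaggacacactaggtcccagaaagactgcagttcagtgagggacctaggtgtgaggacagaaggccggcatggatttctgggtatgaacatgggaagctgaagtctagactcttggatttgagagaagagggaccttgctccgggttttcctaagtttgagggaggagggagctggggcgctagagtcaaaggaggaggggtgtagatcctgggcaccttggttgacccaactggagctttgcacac
Tnnt1: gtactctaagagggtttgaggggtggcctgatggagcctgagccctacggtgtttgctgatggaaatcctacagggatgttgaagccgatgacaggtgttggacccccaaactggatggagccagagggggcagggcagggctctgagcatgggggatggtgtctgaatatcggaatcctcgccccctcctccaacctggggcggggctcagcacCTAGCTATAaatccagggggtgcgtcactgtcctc

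In its first window, Tnnt2 held an M-CAT match 27 to 22 bases before its start and 2 GATAA matches, and Tnnc1 an M-CAT match 58 to 53 bases before its start on the opposite strand. The second Tnnt2 window held neither, but 2 CTANNNNTA matches (212 to 204 and 71 to 63 bases before its start), both with G or C in the middle. The letters found therefore depend on the start chosen. Tnni1 held a CTANNNNTA match with only T in the middle 45 to 37 bases before the first of its starts. Tnnt1 held one at 35 to 27 with G and C in the middle, while Tnni3 held none of these letters in this window. Among 32851 RefSeq windows of the same length, 12.6% held CATTCC, 22.6% GATAA and 19.0% CTANNNNTA on either strand, so each match is common. The serum response element known as the CArG box was in none of the windows of these genes, and in 1.47% of all windows. E-boxes (CANNTG, which reads the same on both strands), the sites of myogenic helix-loop-helix factors, were in 66.2% of windows and in each of the 5 shown. A match is a description of the letters only, and no binding was measured.

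The cardiac troponin T gene Tnnt2 separated all populations. On its brightest probe set, double-positive arrays read 2342, 1759 and 1702 units in experiments A, B and C, and green-only arrays 698, 906 and 1070. Red-only arrays read 286, 229 and 426, and double-negative arrays 20.3, 17.1 and 16.3. The 4 populations did not overlap: the ratio of mean intensities was 108 for double-positive, 49.8 for green-only and 17.5 for red-only against double-negative cells. Values were tested as log2(intensity + 4.10) with limma across 13698 genes that passed a filter on low values, with Benjamini-Hochberg adjustment, a scale that understates the change of dim genes. Tnnt2 was higher than in double-negative cells by 6.45 ± 0.21 (log2 fold change ± SE) in double-positive, by 5.33 ± 0.21 in green-only and by 3.81 ± 0.21 in red-only cells (limma adjusted p = 7.74e-10, 6.55e-09 and 1.82e-07). It was also higher in double-positive than in green-only cells by 1.12 ± 0.21 and lower in red-only than in green-only cells by a log2 change of -1.52 ± 0.21 (limma adjusted p = 0.00841 and 0.00177).

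Both other Tnnt2 probe sets kept this order. One, whose suffix (x) says that its probes can also bind other transcripts, averaged 1827 ± 336, 852 ± 97.1, 302 ± 72.5 and 21.6 ± 6.7 units in double-positive, green-only, red-only and double-negative cells. The third, designed from an expressed sequence tag, was dimmer, at 72.1 ± 8.1, 40.2 ± 17.3, 15.5 ± 5.7 and 6.78 ± 0.74. Its double-negative values lay at the level of the array medians, and its log2 change of double-positive against double-negative cells was 2.81 ± 0.26 (limma adjusted p = 5.24e-06 with every probe set fitted). For the difference of double-positive from green-only cells this dim probe set did not pass (0.87 ± 0.26, limma adjusted p = 0.0911).

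Troponin C, from Tnnc1, showed the same order. Its arrays read 1713, 1044 and 1082 units in double-positive, 686, 631 and 648 in green-only, 150, 101 and 204 in red-only and 50.1, 16.6 and 25.9 in double-negative cells. No populations overlapped. Against double-negative cells, Tnnc1 was higher by 5.28 ± 0.31 in double-positive, by 4.35 ± 0.31 in green-only and by 2.22 ± 0.31 in red-only cells (limma adjusted p = 6.56e-08, 8.58e-07 and 0.000231). It was lower in red-only than in green-only cells, with a log2 change of -2.14 ± 0.31 (limma adjusted p = 0.00263). Double-positive arrays exceeded green-only arrays 2.50-, 1.66- and 1.67-fold in experiments A, B and C, a log2 difference of 0.93 ± 0.31 that did not pass (limma adjusted p = 0.113). It passed with the experiment as a block (0.0243; 4.41% of all genes higher and 4.96% lower), in a fit of the 6 arrays alone (0.0481) and when the experiment A double-negative array was left out (0.0493).

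The embryonic troponin I gene Tnni1 rose in all reporter-positive populations. It read 2591, 2460 and 2179 units in double-positive, 872, 1301 and 1295 in green-only, 620, 631 and 809 in red-only and 54.2, 61.4 and 64.6 in double-negative cells. The red-only and green-only arrays came near each other, with 809 the highest red-only and 872 the lowest green-only value, while the other populations lay far apart. Against double-negative cells, Tnni1 was higher by 5.23 ± 0.15, 4.16 ± 0.15 and 3.42 ± 0.15 in double-positive, green-only and red-only cells (limma adjusted p = 4.02e-10, 5.89e-09 and 2.75e-08). Double-positive exceeded green-only cells by 1.08 ± 0.15 (limma adjusted p = 0.00196). Red-only cells lay under green-only cells by a log2 change of -0.73 ± 0.15 (limma adjusted p = 0.0203). The last call was lost in a fit of the 6 arrays alone (0.105), when a red-only array was left out (0.0904 for experiment A, 0.0894 for B) and when a green-only array was (0.0712 for B, 0.0748 for C).

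The adult cardiac troponin I gene Tnni3 was dimmer and split the populations by the green reporter. It read 160, 73.2 and 60.2 units in double-positive and 53.9, 66.3 and 51.3 in green-only cells, against 11.2, 8.25 and 17.5 in red-only and 10.5, 7.25 and 8.38 in double-negative cells. Double-positive and green-only arrays overlapped, as did red-only and double-negative arrays, and no array of the first pair came near one of the second. Tnni3 was higher than in double-negative cells by 2.87 ± 0.29 in double-positive and 2.26 ± 0.29 in green-only cells (limma adjusted p = 7.08e-06 and 0.000114). The log2 change in red-only cells, 0.33 ± 0.29, did not pass (limma adjusted p = 0.490). Red-only cells lay under green-only cells by a log2 change of -1.93 ± 0.29 (limma adjusted p = 0.00264). Double-positive against green-only cells did not pass (0.62 ± 0.29, limma adjusted p = 0.274), and the difference was 0.21 without the double-positive array of experiment A. That array also had the highest ratio of 3' to 5' actin signal of the 12 (1.55, against 1.32 to 1.48 on the others) and its part in the result was not tested.

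**Figure D2:**
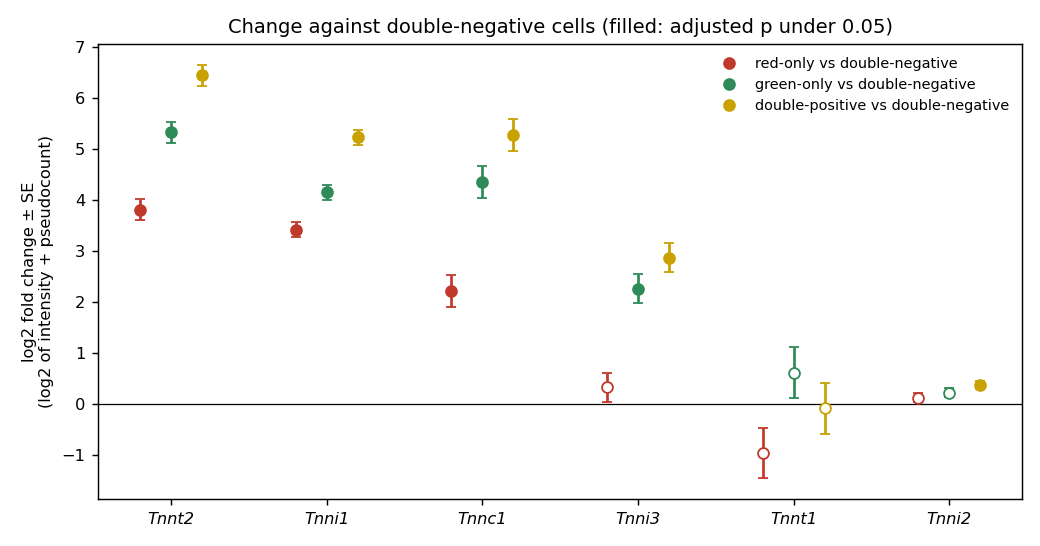
Log2 fold change with its standard error (limma, 3 arrays per population) against double-negative cells for the 6 troponin genes that passed the filter on low values; filled points passed an adjusted p of 0.05. Tnnt2, Tnni1 and Tnnc1 lie above 0 in red-only, green-only and double-positive cells. Open points are Tnni3 in red-only cells (0.33 ± 0.29), Tnni2 in red-only and green-only cells, and Tnnt1 in every population.

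By count, 5 of the 8 genes (Tnnt2, Tnni1, Tnnc1, Tnni3 and Tnni2) rose in double-positive over double-negative cells, where 13.9% of all tested genes were higher and 17.6% lower. Over the same double-negative cells, 3 rose in red-only cells (Tnnt2, Tnni1 and Tnnc1; 10.9% of all genes higher and 12.7% lower) and 4 in green-only cells, these and Tnni3 (9.34% higher and 11.4% lower). The same 4 were higher in double-positive than in red-only cells (5.94% of all genes higher and 6.17% lower) and lower in red-only than in green-only cells (1.77% lower and 1.32% higher). Only Tnnt2 and Tnni1 were called higher in double-positive than in green-only cells (2.85% higher and 2.77% lower). No troponin gene was called in the opposite direction in any of these 6 comparisons. The 3 comparisons with double-negative cells share those arrays. Tnnt3 and Tnnc2 did not pass the filter on low values, and 6 genes were tested.

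The rise of Tnnt2 and Tnni1 in cells with both reporters was smaller on the log2 scale than the sum of the rises with each reporter alone. An interaction depends on the scale: in intensity units it was not tested, and its sign can differ there. For Tnnt2 the double-positive level fell short of that sum, with an interaction of -2.69 ± 0.29, and for Tnni1 of -2.34 ± 0.21 (limma adjusted p = 0.000181 and 4.43e-05). Interactions below 0 were called for 5.67% of all genes, and above 0 for 4.8%. Tnnc1 did not pass (-1.29 ± 0.44, limma adjusted p = 0.0859), but did with the experiment as a block (0.0181; 7.81% of all genes called below 0 in that fit) and when the experiment A double-negative array was left out (-1.67, 0.0163). Tnni3 had an interaction of 0.29 ± 0.40 (limma adjusted p = 0.749). On the dim Tnnt2 probe set the interaction was 0.06 ± 0.37 (limma adjusted p = 0.959), against -2.49 ± 0.28 on the brighter second one (0.000233).

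Slow skeletal troponin T behaved unlike its cardiac counterpart. Tnnt1 read 63.7, 16.3 and 22.5 units in double-positive, 126, 27.3 and 34.3 in green-only, 18.1, 9.90 and 15.1 in red-only and 42.0, 22.5 and 31.8 in double-negative cells, in experiments A, B and C. Experiment A was the highest in each population. When experiments were pooled, red-only arrays lay below all green-only and double-negative arrays and overlapped double-positive ones. The other populations overlapped one another. Within each experiment green-only was highest and red-only lowest, green-only exceeding red-only 6.94-, 2.76- and 2.27-fold. With no block, none of the 6 comparisons passed for Tnnt1. For example, red-only against green-only cells gave a log2 change of -1.57 ± 0.50 and red-only against double-negative cells -0.96 ± 0.50 (limma adjusted p = 0.129 and 0.204).

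The 12 arrays did deviate together by experiment, so the fit with the experiment as a block is given beside these values. In it, Tnnt1 differed between experiments (limma adjusted p = 0.0266, where 2.43% of all genes did), and the other 5 tested troponin genes did not pass (0.145 to 0.784). With the block, Tnnt1 was lower in red-only than in green-only cells (-1.57 ± 0.25, limma adjusted p = 0.00347; 3.13% of all genes lower and 2.61% higher). It also fell in red-only against double-negative cells (-0.96 ± 0.25, limma adjusted p = 0.0126; 15.1% lower and 13.3% higher), a call also made in a fit of the 6 arrays alone (0.00837). It was higher in double-positive than in red-only cells (0.88 ± 0.25, limma adjusted p = 0.0327; 7.88% higher and 8.88% lower). Double-positive against double-negative cells did not pass in either fit (-0.09 ± 0.50 without the block, adjusted p = 0.930). Without the green-only array of experiment A, the pooled change of green-only against double-negative cells was -0.024 in place of 0.61, so the high green-only mean of 62.5 ± 55.0 rests on that array.

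**Figure D3:**
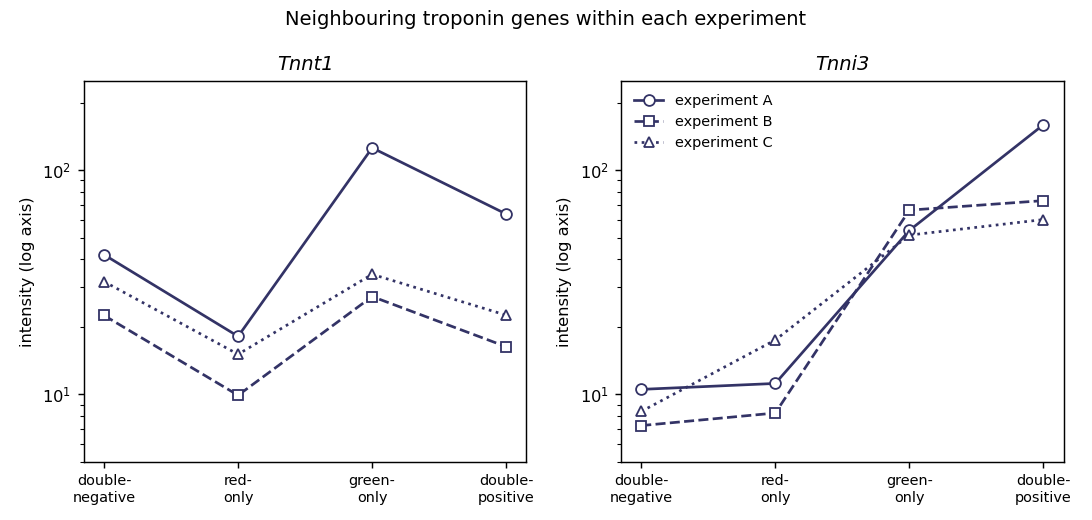
Deposited intensity (log axis) of Tnnt1 and of its chromosomal neighbour Tnni3 in the 4 populations, with 1 line per experiment joining arrays of the same letter. Tnnt1 dips in red-only and peaks in green-only cells in all 3 experiments (126, 27.3 and 34.3 units), while Tnni3 stays under 18 units in double-negative and red-only cells and lies above 51 in the other populations.

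Of the fast skeletal genes, Tnnt3 and Tnnc2 gave no signal above the array median, while the brightest Tnni2 probe set lay above it on all 12 arrays. Tnnt3 lay between 4.08 and 5.40 units and Tnnc2 between 3.34 and 5.16 on the 12 arrays, under the array median throughout. Fitted with no filter on low values, none of their comparisons passed (limma adjusted p of 0.292 to 0.974). The brightest Tnni2 probe set, again one of the x type, read 31.4, 29.1 and 31.5 units in double-positive, 23.5, 30.0 and 28.4 in green-only, 25.2, 23.9 and 26.3 in red-only and 22.1, 24.4 and 21.6 in double-negative cells. Double-positive arrays lay above red-only and double-negative arrays and overlapped those of green-only cells. The rise over double-negative cells was small, 0.37 ± 0.09 (limma adjusted p = 0.00504), a ratio of means of 1.35. A Tnni2 probe set of the same source sequence without the x suffix lay between 3.79 and 5.02 units, under the array median on all arrays. The third Tnni2 probe set lay between 5.47 and 7.90 units and rose by 0.24 ± 0.07 (limma adjusted p = 0.0173).

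Over all 4 populations, 5 of the 8 genes differed in limma's F-test (Tnnt2, Tnni1, Tnni3, Tnnc1 and Tnni2), where 32.3% of all genes did. The Tnni2 call (adjusted p = 0.0238) was lost when a double-positive array was left out (0.0706 for experiment A, 0.0746 for C) or a double-negative one (0.0692 for A, 0.0728 for C). Tnnt1 did not pass (0.125), and did with the experiment as a block (0.00238; 39% of all genes).

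Cardiac and skeletal isoforms of the same subunit were then compared by the difference of their log2 values within each array, which removes what both genes share on that array. Probe sets differ in brightness, so only changes of this difference between populations are read. Each of 5 pairs was tested with a permutation test that enumerated all 369600 assignments of the 12 arrays to 4 populations, where the smallest p is 6.49e-05. These assignments exchange arrays between experiments. Over the alternatives, one of which permuted only within experiments, the unadjusted exact permutation p was at most 0.00694 for Tnnt2 minus Tnnt1. It was at most 0.00474 for Tnni3 minus Tnni2, 0.0026 for Tnni3 minus Tnni1 and 0.00174 for the other pairs. For troponin T, Tnnt2 minus Tnnt1 was -0.69 ± 0.31 (SD, n = 3) in double-negative, 4.08 ± 0.39 in red-only, 4.03 ± 1.38 in green-only and 5.85 ± 0.67 in double-positive cells (exact permutation p = 0.00162, 0.00203 adjusted over the 5 pairs). Red-only and green-only arrays overlapped in this difference, although Tnnt2 alone separated them.

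For troponin I, the difference between the adult and the embryonic form was lower in all reporter-positive populations. Tnni3 minus Tnni1 was -2.33 ± 0.29 in double-negative, -4.23 ± 0.32 in green-only, -4.69 ± 0.61 in double-positive and -5.42 ± 0.23 in red-only cells (exact permutation p = 0.000844, 0.00141 adjusted over the 5 pairs). Red-only arrays lay below all others, and green-only and double-positive arrays overlapped. Tnni3 was near the array medians in double-negative cells (7.25 to 10.5 units) and in red-only cells (8.25 to 17.5), where a floor in the values can hide its change. A change of balance between the isoforms therefore cannot be read from these differences, neither its size nor its direction. The value for double-positive minus double-negative cells was -2.36, and -2.52 to -2.08 over the other pseudocounts and normalization. Tnni3 minus the fast gene Tnni2 was -1.07 ± 0.24 in double-negative, -0.87 ± 0.35 in red-only, 0.96 ± 0.17 in green-only and 1.43 ± 0.70 in double-positive cells (exact permutation p = 0.00253, also 0.00253 adjusted). Tnni2 varied little, with means from 22.7 units in double-negative to 30.6 in double-positive cells. This difference therefore mostly traces Tnni3, with the same limit near the array medians.

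The remaining pairs set a bright gene against one under the array medians, so they trace Tnnt2 and Tnnc1. Tnnc1 minus Tnnc2 rose from 1.97 ± 0.62 in double-negative to 4.29 ± 0.44 in red-only, 6.25 ± 0.14 in green-only and 7.25 ± 0.44 in double-positive cells. Tnnt2 minus Tnnt3 rose from 1.36 ± 0.10 to 5.08 ± 0.49, 6.58 ± 0.32 and 7.78 ± 0.15 in the same order. No populations overlapped in either difference, and both gave the smallest possible exact permutation p (6.49e-05, 0.000162 adjusted over the 5 pairs).

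**Figure D4:**
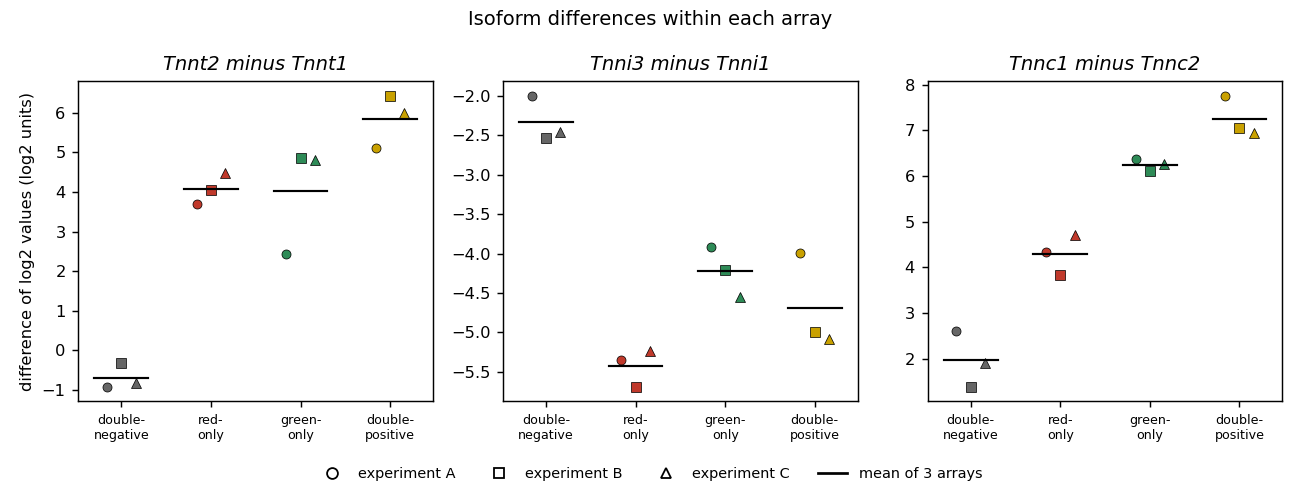
Difference of log2(intensity + 4.10) between a cardiac and a skeletal isoform of troponin T, I and C on each array, with bars at the mean of 3 arrays and marker shapes for the experiments. Tnnc1 minus Tnnc2 climbs from double-negative through red-only and green-only to double-positive cells. Tnnt2 minus Tnnt1 is lowest in double-negative and highest in double-positive cells, and red-only and green-only arrays overlap. Tnni3 minus Tnni1 is lowest in red-only cells (-5.42 ± 0.23).

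The likeness of the genes over the 12 arrays is given as Pearson's r of log2 values, as a description, since the points share 4 populations and 3 experiments. Among 13697 other genes, Tnni1 (r = 0.993) ranked 5th in likeness to Tnnt2, Tnnc1 39th (0.972) and Tnni3 476th (0.863). Outside the troponins, the genes most like Tnnt2 were Acta2, the smooth muscle actin also made in early heart muscle (0.997), the atrial light chain genes Myl7 (0.996) and Myl4 (0.996), Thbs4, a thrombospondin (0.994), and Nexn, an actin-binding Z-disc protein (0.991). Those most like Tnni3 were Cryab, a small heat shock protein (0.984), Hk1, a hexokinase (0.984), Ryr2, the cardiac calcium release channel (0.981), Atp1b1, a sodium pump subunit (0.978), and Palm2 (0.975). Tnnt1 had r = 0.09 with Tnnt2 and 0.43 with Tnni3, and the genes most like it were Vmp1 (0.941), Abca3 (0.940), Bcam (0.924), Tagln (0.919) and Pgap1 (0.912).

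Of the 8 genes, 6 lie near another on mouse chromosomes, while Tnnc1 (chromosome 14) and Tnnc2 (chromosome 2) lie apart. In the RefSeq order, Tnnt1 and Tnni3 are adjacent coding genes on chromosome 7, and 1 coding gene, Lad1, lies between Tnni1 and Tnnt2 on chromosome 1. Another pair on chromosome 7, Tnni2 and Tnnt3, has 1 coding gene, Lsp1, between them, and Tnnt3 was under the array medians throughout. Tnni1 and Tnnt2 both rose in all reporter-positive populations. Lad1, which encodes ladinin of basement membranes, did not rise: it averaged 16.9 ± 2.7 units in double-positive, 14.2 ± 1.3 in red-only, 31.9 ± 14.0 in green-only cells, and the double-negative mean was 33.9 ± 1.6. It was lower than in double-negative cells by log2 changes of -0.86 ± 0.20 in double-positive and -1.05 ± 0.20 in red-only cells (limma adjusted p = 0.00491 and 0.00200).

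Partners of troponin on the thin filament moved with it in part. Of 19 other thin filament genes 18 were on the array and 13 passed the filter. In double-positive against double-negative cells 10 were higher and 2 lower (13.9% and 17.6% of all genes), with a median log2 change of 1.96 against -0.01 over all tested genes. The largest rises were those of Actc1, cardiac actin (5.41 ± 0.25), Nebl, a nebulin relative (4.07 ± 0.21), and Fhod3, a formin of sarcomeric actin (3.898 ± 0.152; limma adjusted p = 9.38e-09, 1.99e-08 and 3.75e-09). The 2 lower genes, named after their values were seen, were Tmod3, a tropomodulin (-0.79 ± 0.15, limma adjusted p = 0.00126), and Tpm3, a tropomyosin (-0.41 ± 0.10, limma adjusted p = 0.00613), while the tropomyosin gene Tpm1, named in the same way, rose by 3.27 ± 0.17 (1.83e-08). Between red-only and green-only cells 7 of the 13 were lower in red-only cells and 0 higher (1.77% and 1.32% of all genes), with Actc1 at -2.02 ± 0.25 and the skeletal actin gene Acta1 at -1.71 ± 0.33 (limma adjusted p = 0.000774 and 0.0135).

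Genes of the thick filament and of calcium handling were counted in the same way. Of 22 thick filament genes 15 passed the filter, and 14 were higher and 0 lower in double-positive cells against double-negative ones (13.9% and 17.6% of all genes; median 4.72). Myh6, a cardiac myosin heavy chain, rose by 5.87 ± 0.26, Myl3 by 5.85 ± 0.34 and Myl2 by 5.84 ± 0.28 (limma adjusted p = 8.19e-09, 5.59e-08 and 1.05e-08). In red-only against double-negative cells 10 of the 15 were higher and 0 lower (10.9% and 12.7% of all genes), and against green-only cells 10 were lower and 0 higher (1.77% and 1.32%). Of 12 calcium handling genes 10 rose in double-positive over double-negative cells (13.9% of all genes, median 2.62). The largest rise was that of Atp2a2, the calcium pump of the sarcoplasmic reticulum (3.69 ± 0.19, limma adjusted p = 2.42e-08). In red-only against green-only cells 7 of the 12 were lower and 0 higher (1.77% and 1.32% of all genes), among them Ryr2 (-1.51 ± 0.21, limma adjusted p = 0.00235).

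Markers of the cell types in these embryoid bodies moved with the populations as follows, and their part in the troponin results was not tested. Summed intensity of 11 cardiomyocyte markers ran from 15627 to 19579 units in double-positive, 8385 to 10335 in green-only, 2930 to 4488 in red-only and 347 to 528 in double-negative arrays. Bright genes weigh most in this sum, with Actc1 and Myl4 averaging 4560 and 3666 units in double-positive cells. Against double-negative cells, 10 of the 11 were called higher in double-positive cells (13.9% of all genes). Nppa was not called in any comparison of 2 populations, and Pln only in that one. The 6 pluripotency markers summed to 1427 to 1701 units in double-negative and 96.2 to 148 in all other arrays. The 5 primitive erythroid markers summed to 1068 to 1960 in double-negative and 57.5 to 142 elsewhere. This erythroid sum came mostly from the globin genes Hbb-bh1, Hba-x and Hbb-y (means of 793, 446 and 160 units in double-negative cells). Gata1 and Klf1 were not called in any comparison of 2 populations. Of 22 skeletal muscle markers 11 lay at or under the array median on every array, among them Myf5, Myf6, Pax7 and the skeletal myosin genes Myh1, Myh2, Myh3, Myh4 and Myh8. Myod1 and Myog, which define skeletal myoblasts, lay at 5.06 to 6.95 and 5.69 to 8.31 units. The skeletal sum was 232 to 325 units in double-positive, 157 to 183 in green-only, 127 to 142 in red-only and 129 to 142 in double-negative arrays. Of 10 smooth muscle markers, which summed to 3886 to 5068, 2536 to 2674, 964 to 1445 and 365 to 460 units in the same order, Myh11 and Mylk lay at or under the array median on every array. Acta2 alone averaged 3924, 2216, 1030 and 185 units in that order, most of the sum in each reporter-positive population. In double-positive against double-negative cells 5 of the 8 tested markers were called higher (13.9% of all genes), and Cald1, Smtn and Tagln were not called. Endothelial markers (7 genes) summed to 201 to 290 in double-positive, 292 to 895 in green-only, 494 to 712 in red-only and 137 to 244 in double-negative arrays.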

How the data were processed

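RNA of 12 sorted samples (5 ug of total RNA each) was measured on single-colour Affymetrix mouse arrays. The deposited values are probe set intensity on a linear scale, made with MAS5 per the submitters' processing notes; its version and scaling are not given in the sources used here, and no detection calls were used. The lowest value on each array lay between 2.09 and 2.22, and the mean after trimming 2% at each end between 22.3 and 23.9 units, so the deposited values have a common floor and were not scaled to one trimmed mean; how this floor arose is unknown, and it limits what low values and fold changes of dim genes mean. Of 45101 probe sets, 64 controls, 932 with several genes and 9160 with none were left out, and the symbols of the other 34945 were updated through Entrez IDs (204 had no current entry). For each of the 18193 genes the probe set brightest on average was kept. Values were used as log2(intensity + 4.10), the 25th percentile of all values, without further normalization, and genes with a mean log2 value under the 40th percentile of probe sets (3.22) were left out, leaving 13698. limma 3.58.1 in R 4.3.3 (lmFit, eBayes) was fitted to 12 arrays with 1 mean per population. Calls were made at a two-sided Benjamini-Hochberg adjusted p of 0.05 over all tested genes. Isoform pairs were tested by exact permutation. An array has no read depth, and 3 arrays per population limit the precision.

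The members, gene lists and tests were chosen with earlier results of these data known. Named were all members, the 5 genes most correlated with Tnnt2, Tnni3 and Tnnt1, and of each list up to 3 genes changed most in double-positive against double-negative cells and 2 in red-only against green-only cells. Deviations from population means correlated at 0.116 to 0.423 in the 18 pairs of arrays that share an experiment letter in the titles, and all 12 arrays correlated best with their own letter, so the letter was taken as pairing arrays. Alternatives were the experiment as a replicate block, pseudocounts of 1 and 6.52, quantile normalization, no filter or a 60th percentile filter, an intensity trend with robust variance, every probe set, only the 6 arrays compared and each array left out. The motif letters, the neighbouring genes, the test between experiments and the choice of probe set by mean log2 value were added after the data were seen. Procedures were tested on simulated data. Python 3.11.15 and matplotlib 3.10.9 drew the figures.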

Additional observations from a re-analysis of the deposited data

Results flagged for a closer look

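For Tnnt2 and Tnni1 the rise with the green reporter differed between cells with and without the red reporter, by the interaction test of the report. The Tnnt2 difference was -2.69 on the log2 scale: green-only exceeded double-negative cells by 5.33, and double-positive exceeded red-only cells by 2.64 ± 0.21. The Tnni1 difference was -2.34, with 4.16 and 1.81 ± 0.15 for the same comparisons. On these probe sets and on the second bright Tnnt2 probe set, over the alternatives and each array left out in turn, the interaction ran from -2.89 to -2.45 for Tnnt2 and from -2.53 to -2.22 for Tnni1, with limma adjusted p of at most 0.000940 and 0.000278. The dim Tnnt2 probe set, fitted on its own, did not show it (0.06 ± 0.37, limma adjusted p = 0.959); it lay near the array medians in double-negative cells.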

How the results depend on the processing

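Of 407 recomputed counts of called troponin genes and isoform differences, 405 kept their side of the threshold or stayed within 1.5 times the reported count. The other 2 are the count of troponin genes lower in red-only against double-negative cells, which was 0 (limma; at an unadjusted p under 0.05 also 0) and became 1, Tnnt1, with the experiment as a replicate block and 1 in a fit of the 6 arrays alone. Of 751 values of single genes under other settings, 5 lost a call, 9 gained one and 7 changed sign. They cover the comparisons and interactions called in the reported fit with no block, and all those of Tnnt1, Tnni3 and Tnnc1. All losses were of Tnni1 in red-only against green-only cells. The fit of every probe set is not among these values. In that fit the dim Tnnt2 probe set did not pass in double-positive against green-only cells or for the interaction (limma adjusted p = 0.0911 and 0.959). Among the 751 values, signs changed only when 1 array was left out, and only for changes that had not passed. These were Tnnt1 in double-positive against double-negative (-0.60 to 0.27) and green-only against double-negative cells (-0.024 to 1.001), and the interactions of Tnnt1 (-0.25 to 0.90) and Tnni3 (-0.12 to 0.56). With the block, no call of a troponin gene was lost, and those gained for Tnnt1 and Tnnc1 stand in the report. Outside the 751 values, Tnni2 passed in green-only against double-negative (0.0148) and in double-positive against red-only cells (0.0394) without the green-only array of experiment A. Left out in turn, arrays gave 4 to 5 troponin genes rising in green-only over double-negative and in double-positive over red-only cells, 2 to 3 in double-positive than in green-only cells, and 3 to 4 lower in red-only than in green-only cells. Over all genes, calls between double-positive and green-only cells numbered 771, but 1283 with the block, 258 with the 6 arrays alone, and 357 and 473 without the double-positive array of experiment A and B. Calls between red-only and green-only cells numbered 423, but 787 with the block, 200 with the 6 arrays alone, and 211 and 204 when the red-only array of A or of B was left out. Calls between double-positive and double-negative cells numbered 4315, and 6611 over 23232 probe sets fitted singly. Tnnt3, Tnnc2 and 1 Tnni2 probe set stayed at the level of unexpressed probe sets, where a small change would not be seen.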

Other observations

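Of 22 skeletal muscle markers 12 passed the filter on low values, and 3 of these were called higher by limma in double-positive over double-negative cells, where 13.9% of all tested genes were; the count was not tested against that share. Myl1, a fast light chain gene, averaged 84.9 ± 32.3 units in double-positive against 34.1 ± 6.3 units in green-only, 12 ± 3.9 in red-only and 7.34 ± 0.73 units in double-negative cells (log2 change of double-positive against double-negative cells 2.90 ± 0.22, limma adjusted p = 6.18e-07). Casq1, the skeletal calsequestrin, averaged 43.2 ± 9.9, 19.9 ± 3.2, 12.6 ± 1.8 and 9.77 ± 1.83 in the same order (1.76 ± 0.15, 2.03e-06). Mylpf, a fast regulatory light chain gene, averaged 23.9 ± 7.2, 10.8 ± 1.9, 7.33 ± 2.40 and 10.7 ± 1.5 (0.89 ± 0.18, 0.00180). Myl1 and Mylpf are also in the thick filament list.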
